A study of Bos taurus with 14 samples.

Results

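Interferon-stimulated genes are the genes that cells switch on when interferon reaches them. The 6 described here are ISG15, MX1, MX2, RSAD2, OAS2 and IFI6, chosen by name from a list of Ensembl cattle identifiers. No rule on their measured values was used, but earlier results of these data were known when they were chosen. All 6 of 6 identifiers were found among the 15524 genes listed, and all 6 passed the filter on low counts that left 14929 genes for testing. They were measured by sequencing of polyadenylated RNA in bovine endometrium, the inner layer of the uterus, in 14 samples taken on day 7 (labelled day 7 oestrus) from the ipsilateral uterine horn. In all, 7 samples of the group labelled Fert+ (high fertility) were compared with 7 of the group labelled Fert- (low fertility). Both groups share tissue, horn and day, there was no untreated control, and the labels give no treatment of the animals, breed, age or batch and do not say whether the cows had been inseminated. Replicate numbers below only name libraries in their listed order. The labels do not state that each sample came from a separate cow, and p-values therefore cover only the spread among the deposited samples, part of which may be technical.

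Type I interferons bind a receptor at the cell surface, and the signal is passed to the nucleus, where response elements in the promoters of interferon-stimulated genes are bound and the genes are transcribed. In ruminants the best known source in the uterus is interferon tau, which the elongating conceptus secretes as the signal of pregnancy recognition, and the endometrium answers with a strong rise of ISG15, MX1, MX2, RSAD2 and OAS genes. Day 7 comes before that elongation, so the samples show the level of these genes at an earlier day. Since the labels do not give insemination, whether a conceptus was present is not known.

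The identifiers are ENSBTAG00000014707 for ISG15, ENSBTAG00000030913 for MX1, ENSBTAG00000008471 for MX2, ENSBTAG00000016061 for RSAD2, ENSBTAG00000014628 for OAS2 and ENSBTAG00000007554 for IFI6. These pairings of identifier and symbol come with the list. The RefSeq table used here (assembly ARS-UCD2.0) holds all 6 symbols but pairs 0 of the 6 identifiers, since none of its 37063 genes carries an Ensembl identifier. In that table MX2 and MX1 lie next to each other on the same chromosome, with 0 genes between them. The other genes of the interferon pathway, and markers of epithelium, stroma, smooth muscle, endothelium and immune cells, could not be matched to identifiers and were not analysed here. The labelled tissue was therefore not checked against its markers. In bulk tissue, fewer cells of a type and less RNA per cell cannot be told apart.

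Library totals were 20641141 to 23641397 counts, and every library held counts for each of the 6 genes. Levels are given as CPM, the usual count rate per scaled library total. They are not scaled by transcript length, so they compare libraries for 1 gene and not 1 gene with another. MX1 had 1088 to 4832 counts per library, IFI6 590 to 1732, RSAD2 271 to 1212, ISG15 118 to 693, MX2 31 to 196 and OAS2 19 to 215. The coefficient of variation of the CPM over the 14 libraries was 63.1% for OAS2, 53.2% for MX2, 49.9% for ISG15, 43.9% for RSAD2, 41.8% for MX1 and 26.4% for IFI6. Counting error alone, at the mean count, gives 11.1% for OAS2, 9.88% for MX2 and at most 6.19% for the other 4, so most of the variation was between samples. Among all genes tested, 5.46% had a larger SD of log2 CPM than OAS2, 8.55% than MX2, 18.5% than ISG15, 25.4% than MX1 or RSAD2 and 42.0% than IFI6. All 6 genes thus varied more than the median gene, IFI6 by little (SD 0.402 against 0.358 log2 units).

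In the comparison of the fertility groups, 5 of the 6 genes had a lower fitted level in high fertility endometrium and OAS2 a slightly higher one. None of the 6 passed the test across all genes (edgeR's quasi-likelihood test, Benjamini-Hochberg adjusted p under 0.05). Over all genes tested, 0.0335% passed. RSAD2 and MX1 had an unadjusted p under 0.05 in the direction of lower levels in high fertility, which makes 2 of 6 members where 2.42% of all genes tested did so. By DESeq2 the members' count was 0 after adjustment, where 0.0804% of all genes passed, and 3 at an unadjusted p under 0.05, where 8.19% did in either direction. By limma-voom it was 0 after adjustment (0.0067% of all genes) and 2 before it (7.38%). A lower fitted level is common, found for 50.3% of all genes tested. The median log2 change of the 6 was -0.56 and that of all genes tested -0.0017. The members vary together, so they are not 6 separate observations. The groups overlapped for all 6 members, and they did not overlap for 0.121% of all genes tested.

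**Figure D1:**
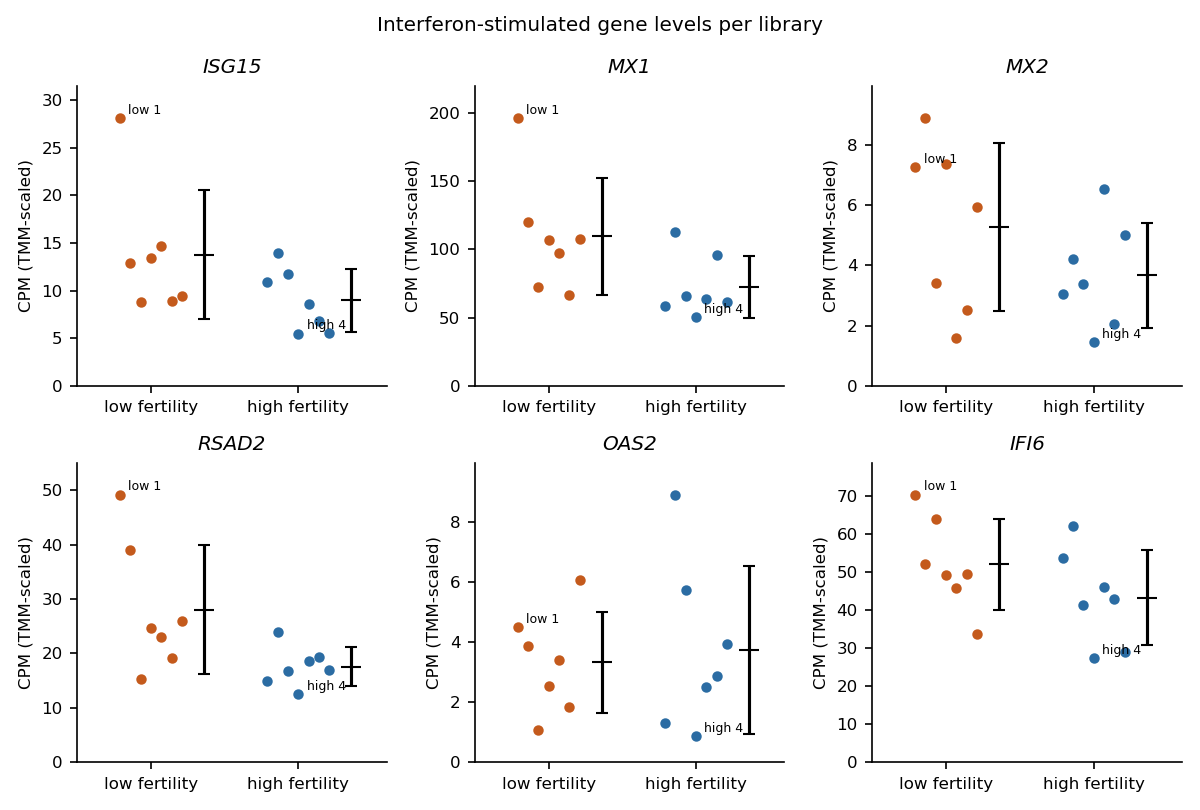
Level of each gene in CPM (vertical axis, linear from 0) in the 7 low fertility (orange) and 7 high fertility (blue) libraries; each dot is a library, and the black bar is the mean ± SD. Low fertility replicate 1 (low 1) is the highest library for ISG15, MX1, RSAD2 and IFI6, and high fertility replicate 4 (high 4) is the lowest for all 6 genes.

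RSAD2 encodes viperin, a radical SAM enzyme that makes a chain-terminating nucleotide and so blocks viral RNA synthesis. Its level was 15.4 CPM at the lowest, 24.7 at the median and 49.2 at the highest in low fertility libraries, and 12.6, 17.0 and 24.0 CPM in high fertility libraries. All 7 high fertility libraries lay below the low fertility median, and 4 low fertility libraries lay above the highest high fertility library, while the rest overlapped. Mean levels were 17.6 ± 3.59 CPM (SD, n = 7) in high and 28.1 ± 11.9 CPM (SD, n = 7) in low fertility. High minus low, the log2 change was -0.67 with an SE of 0.231 (95% interval -1.16 to -0.18), a 1.59-fold lower level. By the edgeR test p was 0.0105 before and 0.728 after adjustment, so the difference did not pass. RSAD2 ranked 178th by p among the 14929 genes, the best rank of the 6. The low fertility libraries spread more (SD 0.574 log2 CPM, against 0.291 in high fertility). That difference in spread was not tested.

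MX1 encodes a dynamin-like GTPase that traps viral nucleocapsids and is a common readout of interferon exposure in cattle. In low fertility libraries it lay at 66.8, 107 and 196 CPM (lowest, median, highest), and in high fertility libraries at 50.6, 63.7 and 113 CPM. In this gene 5 of the 7 high fertility libraries were below every low fertility library. High fertility replicates 2 and 6, at 113 and 95.7 CPM, were the exceptions and lay among the low fertility libraries. Mean levels were 72.6 ± 22.7 CPM (SD, n = 7) in high and 110 ± 42.8 CPM (SD, n = 7) in low fertility, and the log2 change -0.59 with an SE of 0.235 (95% interval -1.09 to -0.09). The edgeR p was 0.0228 before and 0.728 after adjustment. Without low fertility replicate 1 the log2 change of MX1 was -0.39 and its unadjusted edgeR p 0.0703.

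ISG15 encodes a ubiquitin-like protein that is secreted and is attached to other proteins in interferon-treated cells. Its lowest, median and highest levels were 8.78, 12.9 and 28.1 CPM in low fertility and 5.49, 8.55 and 13.9 CPM in high fertility. The highest value, in low fertility replicate 1, stood apart from the next low fertility value of 14.7 CPM, and 4 high fertility libraries lay below every low fertility library. Means were 9.0 ± 3.30 CPM (SD, n = 7) in high and 13.8 ± 6.76 CPM (SD, n = 7) in low fertility. The log2 change of -0.61 (SE 0.290, 95% interval -1.23 to 0.0033) did not pass (edgeR p 0.0511 before and 0.728 after adjustment). Without low fertility replicate 1 it was -0.34, so this library alone moved the estimate by more than 1.5 times.

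MX2, a paralog of MX1 that is also a dynamin-like GTPase, was at 1.605, 5.94 and 8.89 CPM in low fertility libraries and at 1.44, 3.39 and 6.52 CPM in high fertility libraries. The low fertility libraries were scattered, with replicates 1, 2, 4 and 7 between 5.94 and 8.89 CPM and replicates 3, 5 and 6 between 1.605 and 3.41 CPM. Most of the high fertility range lay inside that of low fertility. Its log2 change was -0.52 with an SE of 0.392 (95% interval -1.36 to 0.31; edgeR adjusted p = 0.786). A 2-fold lower level and a slightly higher one both lie within this interval. Since MX1 and MX2 are related genes, reads from shared stretches could have been lost or split in counting.

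OAS2 encodes an oligoadenylate synthetase, which senses double-stranded RNA and makes the oligoadenylates that activate RNase L. It was at 1.08, 3.39 and 6.07 CPM in low fertility and at 0.884, 2.86 and 8.90 CPM in high fertility, so the high fertility libraries enclosed the whole low fertility range. Means were 3.73 ± 2.80 CPM (SD, n = 7) in high and 3.33 ± 1.68 CPM (SD, n = 7) in low fertility. The log2 change was 0.17 with an SE of 0.469 (95% interval -0.83 to 1.16; edgeR adjusted p = 0.948). Its sign was not stable: the log2 change was -0.0058 by limma-voom, -0.0535 with library total as a covariate, and -0.21 by edgeR without high fertility replicate 2, the highest of all 14. The interval still holds a 2-fold higher level in high fertility.

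IFI6, a small hydrophobic membrane protein that limits cell death, was the least variable of the 6. Its lowest, median and highest levels were 33.7, 49.4 and 70.3 CPM in low fertility and 27.4, 43.0 and 61.9 CPM in high fertility libraries. Of the high fertility libraries, 2 lay below all low fertility libraries, and 2 low fertility libraries lay above all high fertility libraries. High minus low, the IFI6 estimate was -0.27 on the log2 scale with an SE of 0.192 (95% interval -0.68 to 0.14; edgeR adjusted p = 0.786). IFI6 was the only 1 of the 6 whose 95% interval excluded a 2-fold change in either direction.

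**Figure D2:**
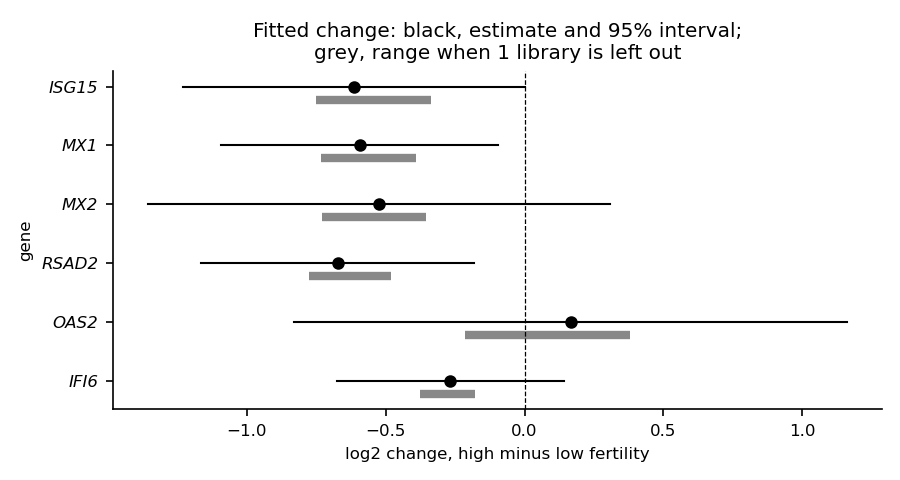
Fitted log2 change of each gene, high minus low fertility (horizontal axis); black dots and lines are the edgeR estimate with its 95% interval from all 14 libraries, and grey bars span the estimates when each library in turn is left out. The intervals of RSAD2 and MX1 end below 0, that of ISG15 reaches 0.0033, and the grey bar of OAS2 crosses 0, from -0.21 to 0.38.

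The libraries at the ends of the range were the same for most members. Low fertility replicate 1 was highest for ISG15, MX1, RSAD2 and IFI6, rank 3 for MX2 and rank 4 for OAS2. High fertility replicate 4 was lowest for all 6. Their totals, 23135676 and 22171635 counts, lay within the range of the other libraries. High fertility replicate 2 and low fertility replicate 2 were also above the mean log2 CPM of every member. Libraries above the mean of all 6 thus occurred in both groups, though high fertility replicate 2 was only rank 7 for MX2. With low fertility replicate 1 and high fertility replicate 4 both left out, a setting chosen after their values were seen and bound to shrink a difference in this direction, the log2 change was -0.41 for RSAD2, -0.32 for MX1, -0.29 for MX2, -0.25 for ISG15, -0.09 for IFI6 and 0.43 for OAS2. In that fit 0 of the 6 had an unadjusted p under 0.05 by edgeR's quasi-likelihood test, and 673 of all genes did.

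**Figure D3:**
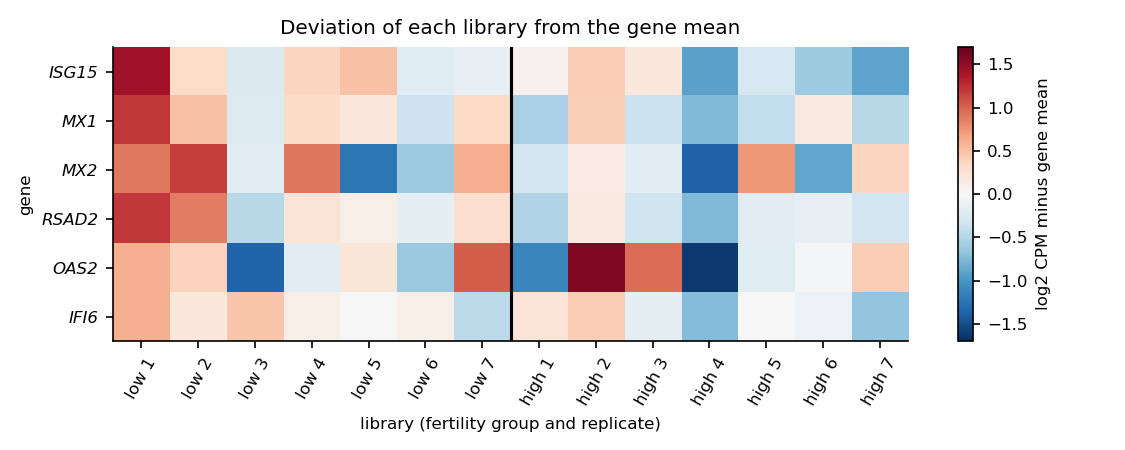
Deviation of each library (columns, 7 low then 7 high fertility, parted by the black line) from the mean log2 CPM of each gene (rows); red is above and blue below the mean. Low fertility replicates 1 and 2 and high fertility replicate 2 are above the mean in all 6 rows, and high fertility replicate 4 is below it in all 6.

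The members' levels moved together over the 14 libraries, to very different degrees. Pearson's r of log2 CPM was above 0 for all 15 pairs, with a median of 0.541 and a range of 0.0963 to 0.935. After Benjamini-Hochberg adjustment over the 15 relations computed, 5 pairs passed by Pearson's r and 2 of these also by Spearman's rho, all by permutation tests. For comparison, the median r of a member with the other 14923 genes tested was between -0.0251 and -0.0016, but single genes spread widely around it. Of those genes 5% had an r above 0.601 with IFI6, above 0.564 with ISG15, and above 0.377 to 0.463 with the other 4 members. For the latter this value was 0.396 for MX1, 0.463 for MX2, 0.387 for RSAD2 and 0.377 for OAS2. The r of IFI6 with MX2 (0.305) and OAS2 (0.0963), and that of ISG15 with MX2 (0.409), were below the value of both genes. The r of IFI6 with MX1 (0.541) and RSAD2 (0.480) was below the value of IFI6 but above that of the other gene. Likewise, ISG15 with OAS2 (0.436) was below the value of ISG15 only, and MX2 with OAS2 (0.445) below that of MX2 only. With the fertility group means removed the median r of the 15 pairs was 0.495. It was 0.497 in the low and 0.539 in the high fertility libraries taken alone, and 0.246 without low fertility replicate 1 and high fertility replicate 4. When the 2 libraries farthest from the median of 1 gene of each pair were left out, 1 of the 15 pairs passed by Pearson's r, with 12 libraries and a range made narrower by that choice.

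MX1 and RSAD2 were the closest pair. Their r was 0.935 (two-sided permutation p = 1.0e-05, the smallest that 100000 resamples can give, adjusted p = 0.00015) and their rho 0.930 (permutation p = 2.0e-05, adjusted p = 0.00030). Without low fertility replicate 1 and high fertility replicate 4, the libraries farthest from the MX1 median, r was 0.857 (permutation p = 8.0e-05, adjusted p = 0.0012). It was 0.934 within low and 0.909 within high fertility. Of the 14928 other genes tested, RSAD2 had the highest r with MX1, and MX1 the highest with RSAD2. The ratio of MX1 to RSAD2 CPM stayed between 3.07 and 4.95 across the 14 libraries, a 1.61-fold range, while each gene alone ranged 3.87-fold and 3.90-fold. The 2 genes therefore kept nearly a fixed proportion in endometrium of either group. Mean log2 ratios were 2.01 in high and 1.98 in low fertility.

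ISG15 followed MX1 (r = 0.785, rho = 0.727), RSAD2 (r = 0.775, rho = 0.653) and IFI6 (r = 0.741, rho = 0.574). The adjusted permutation p of r was 0.0049, 0.0049 and 0.0083 for these pairs. That of rho was 0.0319 for MX1 but 0.0574 for RSAD2 and 0.0758 for IFI6. Without low fertility replicate 1 and high fertility replicate 4, r was 0.508, 0.483 and 0.545, each with an adjusted permutation p of 0.235. These 3 relations thus did not pass without those libraries, which were chosen for lying at the ends of the ISG15 range. That choice narrows the range and leaves fewer libraries, so it cannot show whether the relations rest on them. Without low fertility replicate 1 alone, r was 0.622, 0.604 and 0.671. The r of ISG15 with MX1 was 0.893 in low and 0.464 in high fertility, and that with IFI6 0.497 and 0.878. Whether these values differ between the groups was not tested.

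MX2 passed only with RSAD2 (r = 0.637, adjusted permutation p = 0.0400; rho = 0.626, adjusted permutation p = 0.0574). Without high fertility replicate 4 and low fertility replicate 2, the libraries farthest from the MX2 median, r was 0.437 (adjusted permutation p = 0.286). With its neighbour MX1, MX2 had an r of 0.502 (rho = 0.552, adjusted permutation p of r = 0.109). The ratio of MX1 to MX2 CPM ranged 6.23-fold over the libraries, from 9.76 to 60.8. The highest ratio was in low fertility replicate 5, which was 6th of 14 libraries for MX1 but 13th for MX2.

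OAS2 had its highest r with MX1 (0.583) and RSAD2 (0.572), with an adjusted permutation p of 0.0672 for each, so neither passed. Within the groups its r with RSAD2 was 0.742 in low and 0.838 in high fertility, which are descriptions of 7 libraries each. Without low fertility replicates 1 and 2, the libraries farthest from the RSAD2 median, it was 0.704 (adjusted permutation p = 0.0874). OAS2 and IFI6 were the least alike pair (r = 0.0963, rho = -0.0286, adjusted permutation p of r = 0.742). Their r was -0.455 in low and 0.420 in high fertility, and -0.485 (adjusted permutation p = 0.235) without high fertility replicates 2 and 4, the farthest from the OAS2 median. The ratio of these genes ranged 10.6-fold over the libraries. Low fertility replicate 3 was 2nd for IFI6 and 13th for OAS2, and low fertility replicate 7 was 2nd for OAS2 and 12th for IFI6. The 6 genes therefore did not rise and fall as a single block.

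**Figure D4:**
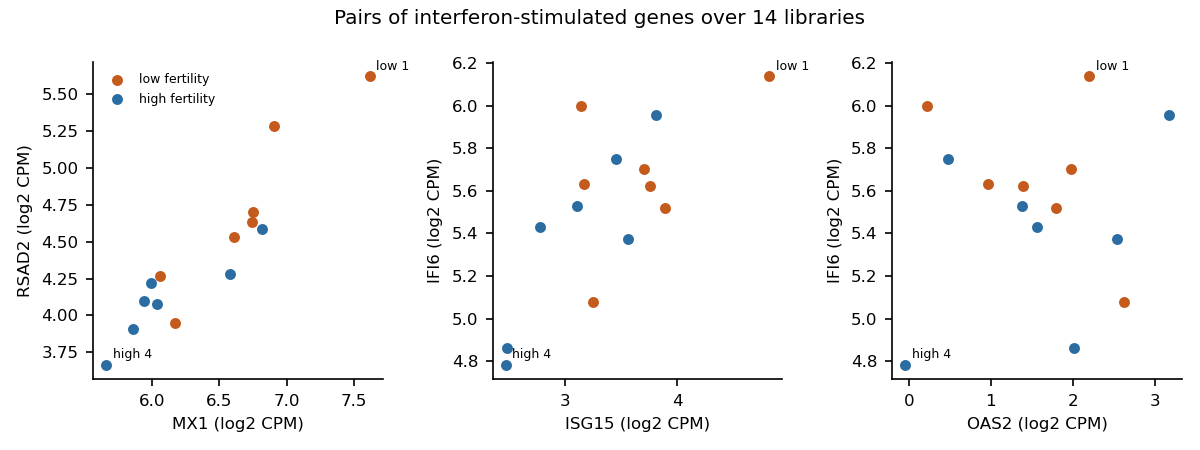
Log2 CPM of RSAD2 against MX1, IFI6 against ISG15 and IFI6 against OAS2 in the 14 libraries (orange, low fertility; blue, high fertility). MX1 and RSAD2 fall near a line (r = 0.935), and OAS2 and IFI6 show no common trend (r = 0.0963). ISG15 and IFI6 lie between these (r = 0.741). Their r was 0.545 without low 1 and high 4, a choice that narrows the range.

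To find genes with a like pattern, the mean r with the 6 members was computed for each of the other 14923 genes tested. It had a median of -0.0194 and ranged from -0.713 to 0.713, with 18 genes at 0.6 or above and 3 at -0.6 or below. The 4 genes with the highest values were ENSBTAG00000039861 (mean r = 0.713), ENSBTAG00000005146 (0.685), ENSBTAG00000003152 (0.681) and ENSBTAG00000034918 (0.661). The files used here do not pair them with names. RSAD2 itself had a mean r of 0.680 with the other 5 members, MX1 0.669 and ISG15 0.629, while MX2 had 0.460, IFI6 0.433 and OAS2 0.426. All 4 genes were highest in low fertility replicate 1 and lowest in high fertility replicate 4. Of the members, 4 of 6 had their highest value in the former and 6 of 6 their lowest in the latter. The 4 genes were picked for their r with the members over these same libraries, so the shared ends are no separate result.

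**Figure D5:**
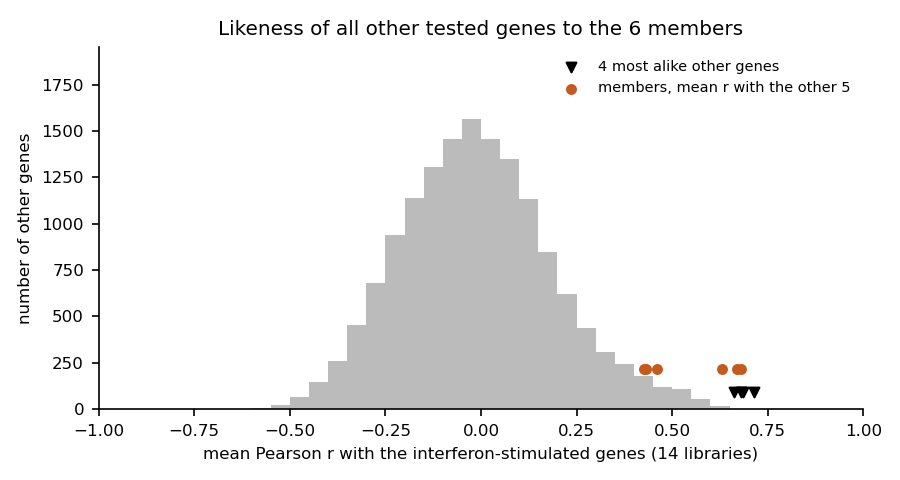
Number of other genes tested (vertical axis) by their mean Pearson r with the 6 interferon-stimulated genes over 14 libraries (horizontal axis, bins of 0.05); triangles are the 4 most alike genes and orange dots the members, each by its mean r with the other 5. Most genes lie around the median of -0.0194, and the 4 genes lie between 0.661 and 0.713.

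ENSBTAG00000039861 had an r of 0.921 with ISG15, the highest of any gene tested and above that of every member. It was also close to RSAD2 (r = 0.853) and MX1 (r = 0.828), and least close to MX2 (r = 0.460). Its level was 47.0 ± 12.5 CPM (SD, n = 7) in high and 61.4 ± 18.2 CPM (SD, n = 7) in low fertility, a log2 change of -0.39 (SE 0.203, edgeR adjusted p = 0.740). ENSBTAG00000003152 was likewise closest to ISG15 (r = 0.914) and had a log2 change of -0.55 (SE 0.294, edgeR adjusted p = 0.740). ENSBTAG00000005146 was near both ISG15 (r = 0.853) and IFI6 (r = 0.802). ENSBTAG00000034918, at a mean of only 2.92 CPM, was closest to RSAD2 (r = 0.812) and to OAS2 (r = 0.780), for which it had the highest r of all genes other than the members. These values ranked the genes and are given as descriptions of the same 14 libraries, with no test.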

How the data were processed

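Raw read counts per gene were deposited by the authors as 1 file per sample and 1 series table, and 0 cells differed between them. Per the submitters' processing notes, CASAVA 1.4, STAR, HTSeq 0.3p7 and edgeR were used with the build UMD3.1. Their settings, the annotation release and strand use are not given in these sources, and reads of overlapping genes or close copies may be split or lost.

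Counts were filtered with filterByExpr, scaled with TMM factors and tested with robust quasi-likelihood fits in edgeR 4.0.16 (R 4.3.3) over all 14 libraries without covariates. P-values were adjusted over all 14929 genes tested, with a threshold of 0.05. Each standard error was derived from the log2 change and its F statistic. Log2 CPM used a prior count of 2. Correlations were tested two-sided with 100000 resamples. Both steps were also run on simulated data, and the outcomes of those runs are not reported here. Alternatives used DESeq2 1.42.0, limma 3.58.1, other scalings and filters, and left-out libraries. Figures were drawn with matplotlib 3.10.9. Named genes were the 6 members and the 4 other genes with the highest mean r with them. The members and lists were chosen with earlier results of these data known. Pathway and cell type lists could not be matched to identifiers and were not run.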

Additional observations from a re-analysis of the deposited data

Results flagged for a closer look

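Each member's CPM was checked in each fertility group for a library far from the others, 12 groups of 7 values in all, by the gap to the nearest library over the range of the group. In 2 of these 12 groups a library passed the critical value of 0.568, where chance gives about 1 in 20 for separate groups of normally distributed values. The check used CPM, in which the highest value stands further apart than in log2 CPM, and log2 CPM was not checked. Both were low fertility replicate 1, in 2 genes that vary together (r = 0.785), so they are not 2 separate flags. Its ISG15 level was 28.1 CPM, with the next low fertility library at 14.7 CPM (gap over range 0.693). Its MX1 level was 196 CPM, with the next at 120 CPM (gap over range 0.590). Without this library the log2 change, high minus low fertility, was -0.34 for ISG15 and -0.39 for MX1, against -0.61 and -0.59 with it.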

How the results depend on the processing

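None of the 6 genes passed the threshold in any of the 12 other settings or in the 14 fits without 1 library, where 0 to 3 of the 6, and 673 to 1825 of all genes tested, had an unadjusted p under 0.05. The sign of the log2 change was the same throughout for ISG15, MX1, MX2, RSAD2 and IFI6; these fits share most libraries. OAS2 reversed to -0.0058 by limma-voom and to -0.0535 with log2 library total as a covariate, and lay between -0.21 and 0.38 without 1 library. The count of all genes past the threshold, 5 with all libraries, was 3 with upper quartile factors, 3 without a composition factor, 12 by DESeq2, 1 by limma-voom, 1 with library total as a covariate, 2 without low fertility replicates 4 and 5, 0 without low fertility replicate 1 and high fertility replicate 4 (chosen after the data were seen), and 0 to 5 without 1 library. The median r of the 15 pairs was 0.495 to 0.582 under other scalings, prior count, rank correlation and subsets and 0.422 to 0.587 without 1 library, but 0.246 without low fertility replicate 1 and high fertility replicate 4. The causes were not tested. No paired analysis was possible because the labels give no replicate numbers shared between the groups.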
